A study of Mus musculus with 20 samples.

Results

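Near intergenic bins are stretches of 100 bp that lie in no RefSeq transcript, more than 1 kb from the end of any transcript, and 5 to 50 kb from the nearest transcription start site (TSS). They were taken from reduced representation bisulfite sequencing (RRBS) of mouse hematopoietic stem cells (HSCs), in which restriction fragments are read after bisulfite treatment and the share of methylated reads at CpG sites is given as a percent. Of 222630 autosomal bins at such positions, 12190 varied between the samples of every group and held no value, other than 0% or 100%, that was repeated within a group. These 12190 bins made up 14.489% of the 84131 bins of the whole series that passed the same filter.

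The 20 samples were HSCs of C57BL/6 mice (C57BL/6J in the study's methods), labelled as blood in GEO and, in those methods, sorted from the bone marrow of female mice that were 3 months old at the start. The groups had received 0 (0x, 4 samples), 2 (2x, 6 samples), 4 (4x, 4 samples) or 10 (10x, 6 samples) injections of 5-fluorouracil (5FU), a pyrimidine analogue used in chemotherapy that blocks the synthesis of thymidylate, and cells were collected 1 month after the last cycle. The labels give no other genotype, allele or agent. Injections were given once per 3 weeks. The labels give no age at collection, and the study's text speaks of controls matched in age to treated mice and in early middle age at the end; whether this held for each sample used here was not tested. The labels do not say whether each sample came from a separate mouse, so the p-values below measure only the spread between these samples. Promoters of the HSC and blood genes Kit, Cd34, Runx1, Gata2, Tal1, Spi1, Lmo2, Mecom, Meis1, Slamf1 and Procr, looked up as a check of the labelled cell type, had mean levels of 0.145% to 18.7%, whereas those of Krt5 (skin) and Gfap (glia) stood at 79.5% and 83.2%, that of Ins2 (pancreas) at 100%, and those of Myod1 (muscle) and Cdh1 (epithelium) at 30.5% and 18.5%. Ptprc and Alb had no promoter bin.

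Most CpG sites of a mammalian genome carry a methyl group, placed by the DNA methyltransferases and copied to the new strand at each cell division. The exceptions are CpG islands, active promoters and enhancers, and the latter often lie between genes at some distance from a TSS. In blood stem cells, the enzymes that write and remove the mark, Dnmt3a and Tet2, are well known regulators of self-renewal.

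The sequences of the bins and regions on which the comparisons below turn are given first, from the RefSeq genome of GRCm38.p6 (mm10), forward strand, 5′ to 3′, with each CpG site in capitals. A region here is a run of near intergenic bins at most 1 kb apart. The first 4 loci passed the test of a single comparison or of the slope, the following pair moved far in 10x without doing so, and the last pair were CpG-rich bins that stayed low. Each is named by its nearest gene, which is a position and not a target.
1700080G11Rik, chr4:127463200-127463399: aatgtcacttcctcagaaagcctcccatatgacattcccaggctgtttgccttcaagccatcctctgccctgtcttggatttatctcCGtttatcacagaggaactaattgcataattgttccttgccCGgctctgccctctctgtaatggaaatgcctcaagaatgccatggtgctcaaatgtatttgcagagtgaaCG
Trim52, chr14:106154500-106154699: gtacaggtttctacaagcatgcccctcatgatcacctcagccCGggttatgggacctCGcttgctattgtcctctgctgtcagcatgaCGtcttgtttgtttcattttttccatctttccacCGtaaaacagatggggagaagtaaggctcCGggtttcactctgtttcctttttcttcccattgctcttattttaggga
Nxph3, chr11:95541100-95541299: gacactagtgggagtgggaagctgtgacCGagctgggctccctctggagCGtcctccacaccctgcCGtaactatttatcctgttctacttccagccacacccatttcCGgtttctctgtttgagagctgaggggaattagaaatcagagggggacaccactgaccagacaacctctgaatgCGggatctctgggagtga
Gm30895, chr5:119005600-119005699: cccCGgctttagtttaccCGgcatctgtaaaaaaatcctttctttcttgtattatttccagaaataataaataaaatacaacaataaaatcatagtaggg
Gm33504, chr7:140987700-140987799: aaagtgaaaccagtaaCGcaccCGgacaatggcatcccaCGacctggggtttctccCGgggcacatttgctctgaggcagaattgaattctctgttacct
Tbx4, chr11:85863800-85863899: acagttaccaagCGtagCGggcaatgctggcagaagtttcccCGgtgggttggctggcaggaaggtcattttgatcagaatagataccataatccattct
Cbx8, chr11:119053300-119053399: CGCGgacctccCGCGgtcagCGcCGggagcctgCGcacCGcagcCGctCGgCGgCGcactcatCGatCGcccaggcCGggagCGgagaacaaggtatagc
Meis1, chr11:19027300-19027399: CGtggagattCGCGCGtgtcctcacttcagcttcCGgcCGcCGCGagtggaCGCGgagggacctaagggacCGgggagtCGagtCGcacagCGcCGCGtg
The 2 CpG sites of the bin near Gm30895 both lay in CCGG, the cut site of the enzyme MspI that is usual in RRBS, and the CpG-rich bins near Cbx8 and Meis1 held 16 CpG sites each. CCGG, which reads the same on both strands, lay wholly or partly in 94.8% of the 12190 bins. The share was 79.4% in all 222630 deposited near intergenic bins.

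Near intergenic bins held a mean of 3.11 CpG sites in 51.1% GC, fewer sites than bins within 1 kb of a TSS (9.24) and about as many as intronic bins more than 5 kb from a TSS (2.79). Soft-masked repeats covered at least 1 base of 53.2% of them and the whole of 7.24%. The nearest TSS belonged to 6731 genes, at a median distance of 17581 bp, with 61.9% of bins upstream of it. It was that of a protein-coding transcript for 46.0% and of a long non-coding RNA for 42.9% of bins.

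Over all 20 samples, 65.9% of the bins had a mean level over 80%, 23.2% lay from 20% to 80% and 10.9% under 20%. The 1330 low bins had more CpG sites (5.36 on average) than the 8038 high bins (2.90), were more often free of repeat bases (67.3% against 40.4%), and lay closer to a TSS (median 13432 bp against 18516 bp). The 2822 intermediate bins had 2.67 CpG sites on average and the widest spread, with a median SD within 0x of 19.8 percentage points, against 6.86 in low and 7.43 in high bins.

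The first comparison asked whether the mean level of these bins moved with the number of 5FU cycles. It rose in 10x. The mean over the 12190 bins was 75.3%, 73.3%, 73.1% and 73.4% in the 4 samples of 0x. The samples of 2x stood at 75.7%, 74.7%, 73.9%, 73.0%, 75.4% and 74.4%. Those of 4x stood at 75.5%, 75.4%, 75.2% and 75.7%, and those of 10x at 76.6%, 75.7%, 76.4%, 75.7%, 76.1% and 75.8%. All 6 samples of 10x and 3 of the 4 samples of 4x lay above the highest sample of 0x, whereas 2x spanned the range of 0x.

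**Figure D1:**
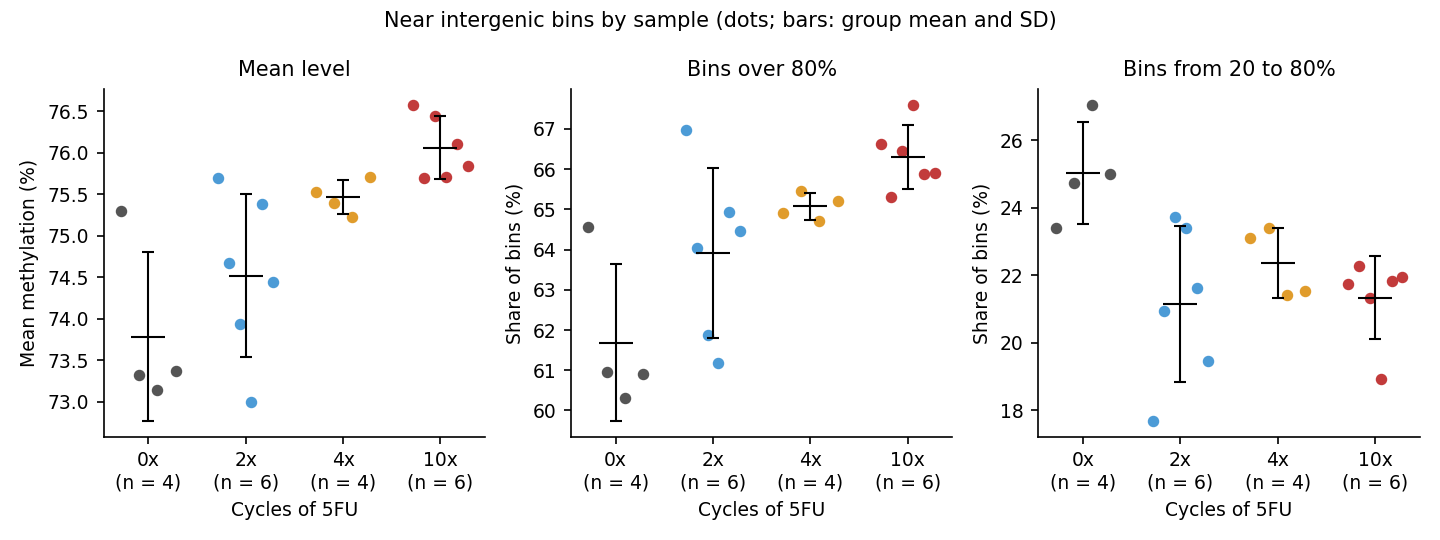
Mean methylation of the 12190 near intergenic bins (left, percent), share of bins over 80% (middle) and share of bins from 20% to 80% (right), by number of 5FU cycles. Each dot is a sample and the bars give the group mean and SD; the axes do not start at 0. The 6 samples of 10x lie between 75.7% and 76.6% mean methylation, above the 4 samples of 0x.

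Mean methylation was 73.8% ± 1.02 (SD, n = 4) in 0x, 74.5% ± 0.981 (n = 6) in 2x, 75.5% ± 0.203 (n = 4) in 4x and 76.1% ± 0.379 (n = 6) in 10x. The difference from 0x was 2.28 ± 0.531 percentage points (SE) in 10x (two-sided exact permutation test, p = 0.00476, the smallest that 4 against 6 samples allow; 0.0143 after Benjamini-Hochberg adjustment over 3 comparisons). It was 1.68 ± 0.518 points in 4x (exact permutation p = 0.0571, adjusted 0.0857) and 0.735 ± 0.647 points in 2x (exact permutation p = 0.290), neither of which passed. As the median over bins in place of the mean, the order was another: 89.5% ± 1.46 (SD, n = 4) in 0x, 95.0% ± 3.53 (n = 6) in 2x, 91.9% ± 2.34 (n = 4) in 4x and 92.1% ± 0.703 (n = 6) in 10x. The median was 5.47 points above 0x in 2x (exact permutation p = 0.0333, adjusted 0.05, at the threshold and not under it) and 2.58 points above it in 10x (exact permutation, adjusted p = 0.0143). The difference of means in 10x was 1.83 points among samples with label numbers 01 to 12 (exact permutation p = 0.333). It was 2.77 points among those with numbers 13 to 34 (exact permutation p = 0.0667). With so few samples neither series could pass alone. With the number series as a block it was 2.30 points (exact permutation within series, p = 0.0111, the smallest the block allows, adjusted 0.0333). Numbers 31 to 34 occurred in 10x alone. If they mark a batch, the block cannot separate it from 10x.

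Across all 20 samples the level rose by 0.210 points per cycle (r = 0.750, permutation p = 0.0003, rho = 0.849, permutation p = 4e-05). Leaving out 2 samples of 10x, the group farthest from the median number of cycles, gave r from 0.680 to 0.758 over the 15 possible pairs. Over the 14 samples of 0x, 2x and 4x alone it rose by 0.420 points per cycle (r = 0.642, permutation p = 0.0158), and over all deposited varying bins of this location the slope was 0.116 (permutation p = 0.00074). As a median over bins it was 0.0133 (permutation p = 0.940). With values repeated within a group set to missing in all varying bins of this location, the slope was 0.0805 per cycle and did not pass (permutation p = 0.249), and 2x then stood at 84.1% and 10x at 83.4%, against 81.6% in 0x.

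The rise in 10x was spread over the genome. The difference was above 0 on all 19 autosomes in each treated group, from 1.52 to 3.11 points in 10x. Bin by bin, 60.6% of near intergenic bins were higher in 10x than in 0x, with a median difference of 1.38 points, beside 56.0% and 0.509 points over all 84131 bins. An increase of at least 10 points was seen in 16.3% and a decrease of that size in 7.77% of near intergenic bins. Over all bins the shares were 10.9% and 6.39%.

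High bins gained members and intermediate bins lost them. The share of bins over 80% was 61.7% ± 1.95 (SD, n = 4) in 0x and 66.3% ± 0.790 (n = 6) in 10x, and every sample of 10x lay above every sample of 0x (exact permutation, adjusted p = 0.0214 over 9 tests). The share from 20% to 80% was 25.04% ± 1.51 in 0x and 21.3% ± 1.23 in 10x (n = 4 and 6, exact permutation, adjusted p = 0.0214). In 2x it was 21.1% ± 2.32 (n = 6), near that of 10x, and in 4x 22.4% ± 1.03 (n = 4), and neither passed (exact permutation, adjusted p = 0.0571 and 0.0857). The share under 20% was 13.3% ± 1.12 in 0x and 12.4% ± 0.616 in 10x and did not pass (n = 4 and 6, exact permutation, adjusted p = 0.155). In 2x it was 14.9% ± 0.915, above 0x (n = 6 and 4, exact permutation, adjusted p = 0.06), and did not pass either. Values of exactly 0% or 100% also moved between groups and libraries. The samples of 0x had 26.1% to 45.3% of bins at these values, those of 2x 45.6% to 60.5% and those of 10x 23.2% to 37.3%. Replicate 06 of 4x had 8.43%, and the other samples of 4x had 29.7% to 51.5%. Read numbers are not in the files used here, and the part of these shares in the differences was not tested.

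The next comparison asked in which kinds of near intergenic bin the level moved. The bins were divided by TSS distance, side of the TSS, level, CpG number and repeat content, which cut the same bins in different ways. Of 42 tests, 13 passed, all of them in 10x, where only the bins under 20% did not. The increase in 10x was 1.79 ± 0.422 points (SE) at 5 to 10 kb, 2.35 ± 0.631 points at 10 to 20 kb and 2.49 ± 0.548 points at 20 to 50 kb. It was 3.11 ± 0.578 points in bins with 1 CpG site, 2.39 ± 0.595 points with 2 to 3 sites and 1.52 ± 0.451 points with 4 or more. Bins without repeat bases (2.29 points), with some (2.27 points) and wholly in repeats (2.27 points) gave nearly equal values, as did bins upstream (2.32 points) and downstream (2.22 points) of the TSS. Bins from 20% to 80% rose by 3.05 ± 0.905 points and those over 80% by 2.51 ± 0.466 points, whereas bins under 20% stood 0.746 points below 0x, with 7.28% against 8.03% (n = 6 and 4, exact permutation, adjusted p = 0.118). That direction depended on the bins kept: over the 7599 deposited varying bins under 20%, 10x stood 0.728 points above 0x, with 7.87% against 7.14%, and passed (n = 6 and 4, exact permutation, adjusted p = 0.0143). The level of a bin was its mean over all 20 samples, so the values of 0x and 10x compared here also set its class. The tests by level are not independent of that choice. Differences between these subsets were not themselves tested.

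**Figure D2:**
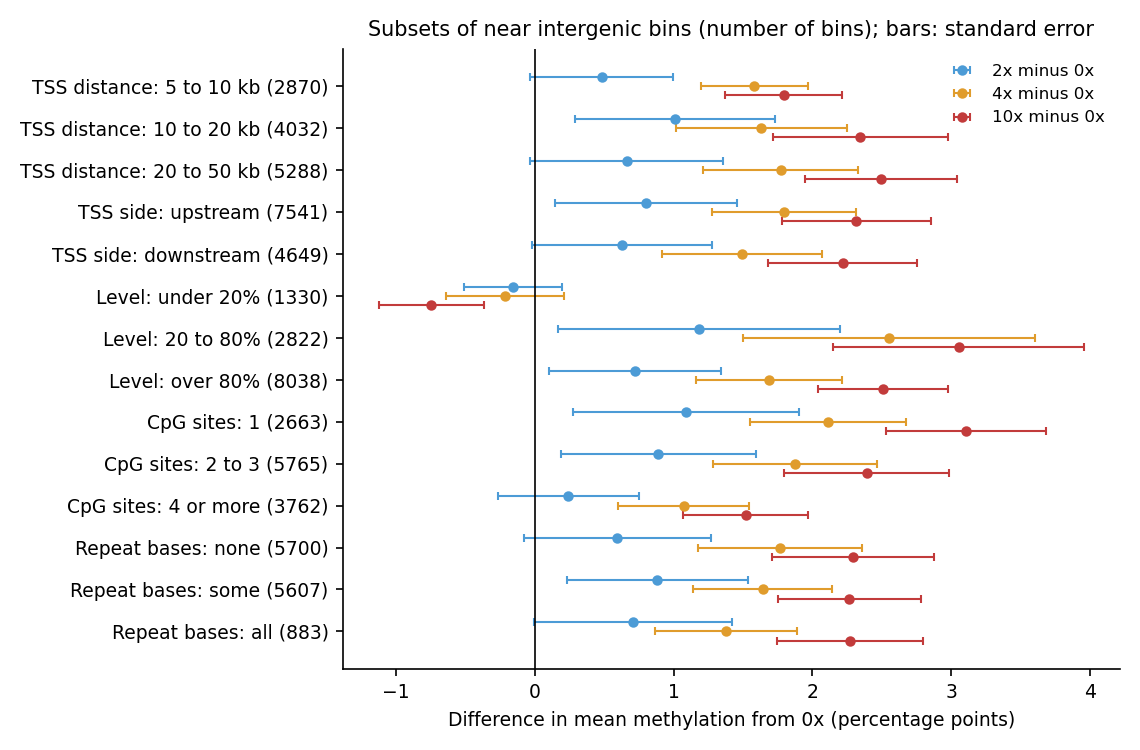
Change against 0x in percentage points of mean methylation (x axis) for 14 subsets of near intergenic bins (y axis, with the number of bins); points are differences of group means and bars their standard error, for 2x, 4x and 10x. In 10x every subset but bins under 20% lies between 1.52 and 3.11 points above 0x; over all deposited varying bins, not plotted, bins under 20% were also above it.

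Near intergenic bins were then set against the locations most like them: gene deserts more than 50 kb from a TSS, promoter flanks 1 to 5 kb from a TSS, and deep introns more than 5 kb from one. In 0x the mean level was 73.8% in near intergenic bins, 82.7% in gene deserts, 77.8% in deep introns and 59.0% in promoter flanks. The change in 10x was 2.44 ± 0.522 points (SE) in gene deserts, 2.00 ± 0.471 points in deep introns and 1.66 ± 0.415 points in promoter flanks. The change in near intergenic bins minus that in gene deserts was -0.165 points, minus that in deep introns 0.274 points and minus that in promoter flanks 0.618 points. None of the 9 tests of such differences passed (exact permutation of the difference within each sample, smallest adjusted p = 0.0857, for promoter flanks and deep introns in 10x). In bins within 1 kb of a TSS the change in 10x was 0.0912 ± 0.123 points.

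**Figure D3:**
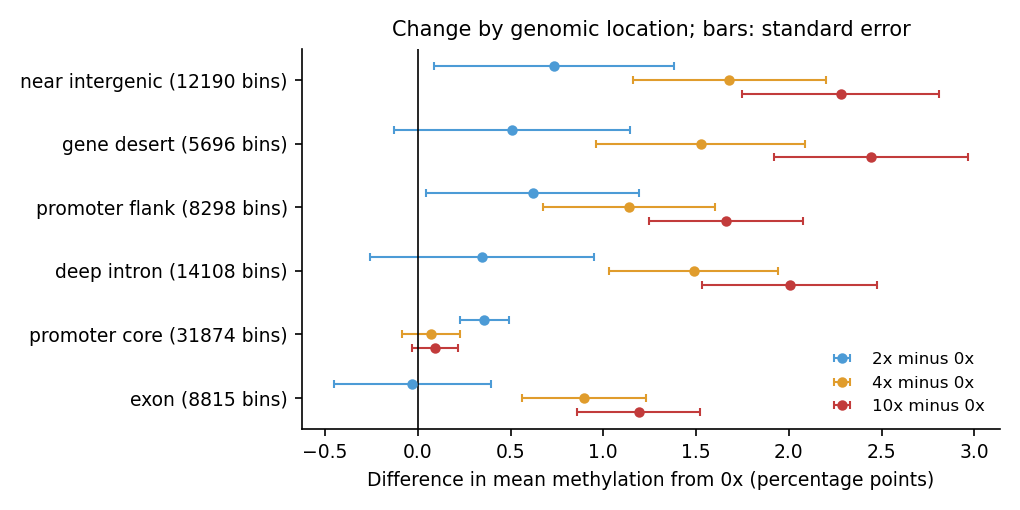
Change against 0x in percentage points of mean methylation (x axis) by genomic location (y axis, with the number of bins), for 2x, 4x and 10x; bars give its standard error. Near intergenic bins, gene deserts, deep introns and promoter flanks lie between 1.66 and 2.44 points above 0x in 10x, and promoter cores at 0.0912 points.

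Single bins were tested with limma over all 84131 bins and called at an adjusted p under 0.05 and a difference of at least 10 points. No near intergenic bin was called in 2x or 4x and 2 were called in 10x, while over all bins 0.00357%, 0.00713% and 0.0131% were called. At an unadjusted p under 0.05, limma gave 598 near intergenic bins (4.91%) for 2x, 606 (4.97%) for 4x and 993 (8.15%) for 10x, beside 3.79%, 3.69% and 6.23% of all bins. The shares in 2x and 4x were no larger than the share that this threshold passes by its own definition. Among those that also differed by at least 10 points, 353 (2.9%) were higher and 128 (1.05%) lower in 2x, beside 1.84% and 1.02% of all bins. In 4x, 334 (2.74%) were higher and 161 (1.32%) lower (all bins 1.81% and 1.04%). In 10x, 546 (4.48%) were higher and 181 (1.48%) lower, beside 2.9% and 1.28% of all bins. By level over all 20 samples, which the values compared helped to set, the counts in 10x were as follows. Of the 8038 bins at 80% or more, 286 (3.56%) were higher and 45 (0.560%) lower. Of the 2822 bins from 20% to 80%, 242 (8.58%) were higher and 104 (3.69%) lower, and of the 1330 bins under 20%, 18 (1.35%) were higher and 32 (2.41%) lower.

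A bin called in 10x lay 11442 bp upstream of 1700080G11Rik, a non-coding gene. Its level in 0x was 52.9%, 58.1%, 55.4% and 72.3%. In 10x the lowest sample was at 88.9% and the median at 100%, and the 4x samples were at 85.2%, 86.0%, 100% and 86.5%. No treated sample overlapped with 0x, and in 2x the lowest was 81.3%. The difference in 10x was 38.2 ± 3.94 points (SE, limma adjusted p = 0.0303). The call was lost on a log2 scale of the percents, with a variance trend, and with the label series as a block (limma adjusted p from 0.0639 to 0.411), in which no near intergenic bin was called in 10x. It was also lost without 0x replicate 02 and without each sample of 10x but replicate 12 (limma adjusted p up to 0.129). The number of calls in 10x ranged from 0 without 10x replicate 32 to 21 without 0x replicate 01.

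With the number of cycles as a numeric term, 1 near intergenic bin passed limma, beside 0.00119% of all bins, which was this bin alone. It lay 47927 bp upstream of the predicted non-coding gene Gm30895, near the outer limit of the distance range. It was at 94.8%, 83.7%, 74.1% and 100% in 0x, at 58.2% to 100% (median 85.5%) in 2x, at 71.6%, 81.7%, 75.6% and 60.7% in 4x and at 28.8% to 61.0% (median 42.1%) in 10x. Each 10x sample but one lay below all samples of the other groups, the exception at 61.0% being just above the lowest of 4x and of 2x. The slope was -4.82 ± 0.646 points per cycle (SE, limma adjusted p = 0.0341), and the call was lost in 14 of the 20 fits that left out a single sample, on a log2 scale of the percents (limma adjusted p = 0.822) and with a variance trend (0.629). In 10x against 0x alone the adjusted p of limma was 0.116.

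Neighbouring bins share restriction fragments, so they were also joined into regions. The 12190 bins formed 7789 single bins and 1926 regions of at least 2 bins, 360 of them with at least 3. limma over the 15929 regions of all locations called 1 near intergenic region in 2x, 0 in 4x and 2 in 10x, beside 0.00628%, 0% and 0.0188% of all regions. At an unadjusted p under 0.05 in limma, 153 near intergenic regions (7.94%) were higher and 48 (2.49%) lower in 10x, beside 4.83% and 2.73% of all regions. No region of at least 3 bins was called.

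The region near 1700080G11Rik, of 2 bins, stood at 71.1%, 70.03%, 70.5% and 68.7% in 0x and at 91.6% to 100% (median 95.2%) in 10x, a difference of 26.0 ± 1.80 points (SE, limma adjusted p = 0.00157). All samples of 2x (73.8% to 100%) and 4x (86.0% to 100%) were also above 0x. The narrow spread in 0x came from opposite values of the pair of bins: 89.2%, 82.0%, 85.6% and 65.1% in the first bin against 52.9%, 58.1%, 55.4% and 72.3% in the second. The first bin alone did not pass in 10x (limma adjusted p = 0.722). The region near Trim52, a tripartite motif gene 48302 bp away, was at 80.9%, 82.9%, 83.2% and 76.1% in 0x and at 91.9% to 98.6% (median 96.8%) in 10x. Its difference was 15.7 ± 1.81 points (SE, limma adjusted p = 0.0463), again with opposite values of the bins in 0x (68.6% and 93.1% in replicate 01, 93.0% and 59.1% in replicate 14), and neither bin passed alone. The call was lost in 8 of the 10 fits that left out a single sample (highest limma adjusted p = 0.189, without 10x replicate 32). In 4x, 3 samples were at 98.6% to 100% and replicate 20 at 53.8%. The region near Nxph3, which encodes a secreted ligand of neurexins, was at 54.6%, 54.6%, 42.7% and 50% in 0x and at 0% to 10.3% (median 0.446%) in 2x, a difference of -48.1 ± 3.0 points (SE, limma adjusted p = 0.000591). It stood at 28.8%, 0%, 54.0% and 51.6% in 4x, where a pair of samples lay within the range of 0x and the others below it, and at 0% to 34.7% in 10x, where it did not pass (limma adjusted p = 0.147). Its pair of bins in 0x was at 100% and 9.26% in replicate 01 and at 100% and 0% in replicate 14. Neither bin passed alone in 2x.

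**Figure D4:**
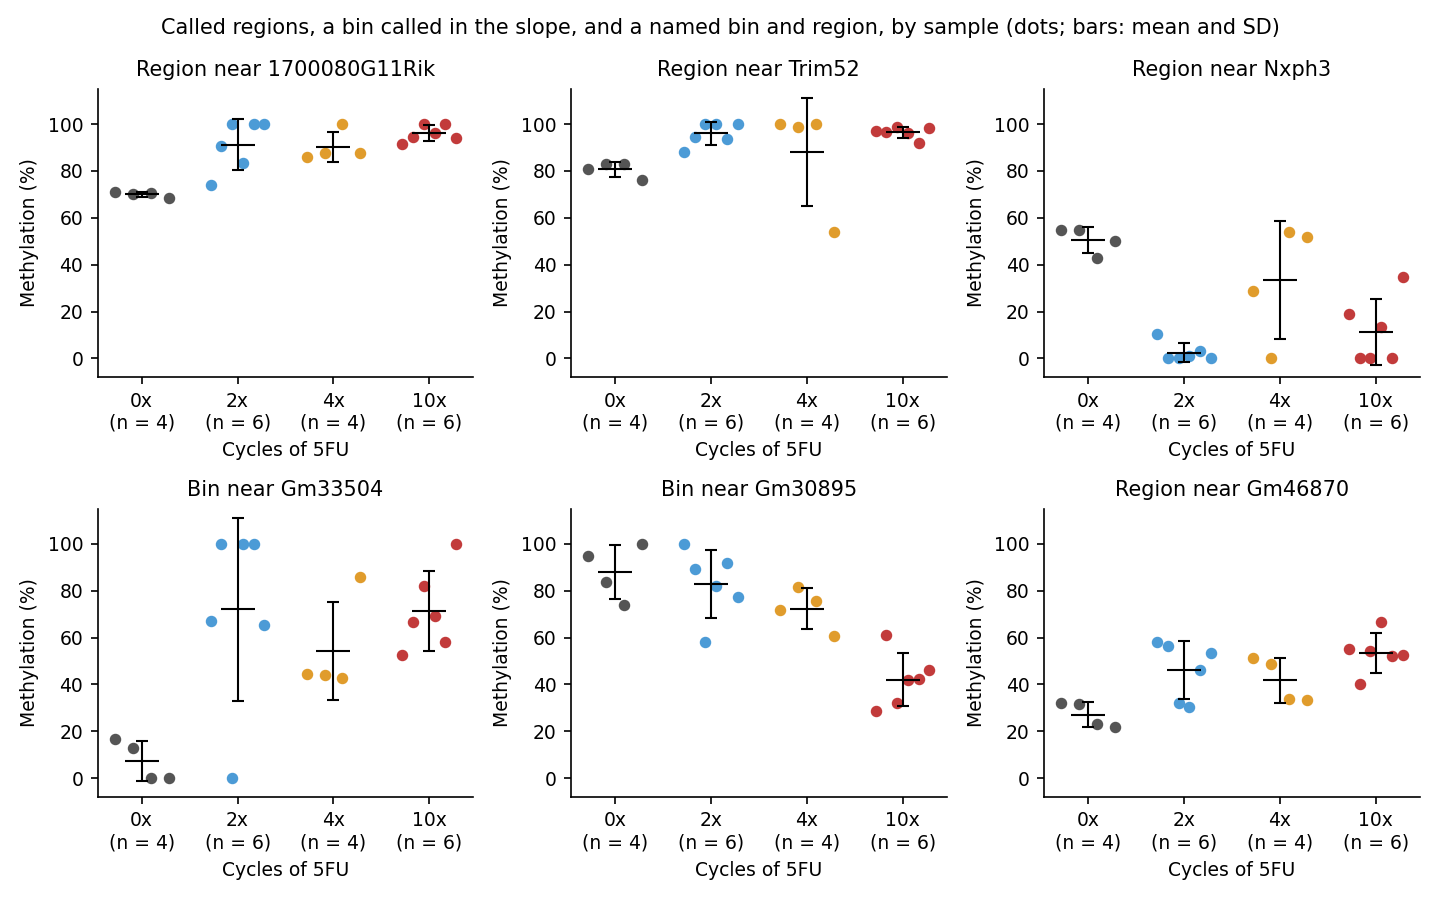
Methylation (y axis, percent) by number of 5FU cycles in the 3 called regions, in the bin called in the slope near Gm30895, and in the bin near Gm33504 and the region of 3 bins near Gm46870, which were not called. Each dot is a sample and bars give the mean and SD; in the regions near 1700080G11Rik and Nxph3 the 0x samples lie at 68.7% to 71.1% and at 42.7% to 54.6%, apart from every sample of 10x.

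Among regions of at least 3 bins the largest differences in 10x were named. Near Gm46870, 3 bins 5303 bp upstream stood at 32.2%, 31.4%, 23.2% and 21.7% in 0x and at 40.1% to 66.7% (median 53.4%) in 10x, without overlap (26.3 ± 4.53 points, SE, limma adjusted p = 0.143). Near Zfp395, a zinc finger gene, 3 bins were at 33.3% to 54.1% in 0x and 59.8% to 76.4% in 10x (25.3 ± 4.74 points, limma adjusted p = 0.161). Near Gpat2, an acyltransferase gene of triglyceride synthesis, 4 bins were at 53.3%, 91.9%, 50.2% and 55.7% in 0x and 75% to 97.0% in 10x, with overlap. The regions near Gm36405 and 2010010A06Rik had lower means in 10x, 30.1% against 62.9% and 27.2% against 49.9%, with overlapping samples. None of the 5 passed.

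The largest differences of single bins without overlap between the groups exceeded 40 points, and apart from the calls above none passed. Bins without overlap with 0x made up 0.689% of the 12190 bins for 2x, 2.19% for 4x and 1.65% for 10x. The share over all bins was not counted, so these values have no background beside them. A smaller group is set apart more easily, and 4x had 4 samples against 6 in 2x and 10x. The shares therefore cannot be ranked between groups. Lack of overlap was the rule by which the bins below were picked, so it does not by itself mark a change. How many bins shuffled sample labels would set apart was not tested. In 10x the bin near Gm33504 stood at 16.7%, 12.8%, 0% and 0% in 0x and at 52.6% to 100% (median 67.9%) in 10x (64.0 ± 8.80 points, SE, limma adjusted p = 0.0941). It was at 42.9% to 85.7% in 4x, above 0x as well. The bin near Gm33330 was at 26.7% to 63.8% in 0x and 81.8% to 100% in 10x, whereas 2x (0% to 47.8%) overlapped with 0x (53.2 ± 7.38 points in 10x, limma adjusted p = 0.0941). The bin near Tbx4, a T-box gene of hindlimb development, was at 100%, 100%, 72.1% and 88.6% in 0x and at 28.6% to 65.6% (median 40.4%) in 10x (-46.4 ± 8.59 points, limma adjusted p = 0.208). The bin upstream of Sncaip, whose product binds alpha-synuclein, was at 52.8%, 75.6%, 43.6% and 63.9% in 0x and at 7.56% to 18.95% in 10x, and did not pass (limma adjusted p = 0.0656). The bin near Cep19, a centrosomal gene, had 51.0%, 38.0%, 100% and 100% in 0x, whereas the 4x samples reached 22.6% at most and the 10x samples 27.0%. The bins near Gm34466 and A730036I17Rik were higher in 10x, by 56.5 and 52.8 points (limma adjusted p = 0.326 and 0.396). That near Gm20110 had the largest decrease of this group in 10x, -64.4 points (limma adjusted p = 0.292). The bins near Gm30895, above, and Gm13749, below, completed this group.

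In 2x the bin near Gm13749 was at 36.8%, 28.2%, 29.3% and 0% in 0x and at 63.3% to 100% (median 84.3%) in 2x. It was also above 0x in all samples of 4x (55.7% to 100%) and 10x (58.8% to 100%), and passed in none of them (limma adjusted p = 0.273 in 2x). The bin near B4galnt3, a glycosyltransferase gene, was at 33.7%, 68.2%, 46.0% and 50% in 0x and at 0% to 13.4% (median 0%) in 2x, but at 38.0% to 70.5% in 4x and 20.2% to 58.8% in 10x (limma adjusted p = 0.135 in 2x). In 4x the largest difference was near Gm34397, at 0%, 0%, 39.0% and 0% in 0x and 75.7% to 100% in 4x, with 0% to 100% in 2x and 10x (84.2 ± 10.5 points in 4x, limma adjusted p = 0.304). The other bins with the largest differences in 2x lay near Gm34105, Gm40167, Gm40620 and Gm31542, which were higher, and near Nxph3, Lemd2, Vmn1r174 and Gm38995, which were lower. Those in 4x lay near Gm31775, Gm31559, Vmn2r96 and Cttnbp2 (higher) and near Gm39040, Cep19, Gm46120, Gm32673 and Tars (lower). The smallest adjusted p of limma over all near intergenic bins was 0.106 in 2x and 0.113 in 4x. The 3 comparisons share the 0x samples.

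Bins near genes of 8 lists were described by the same counts. None was called in any comparison. The counts of higher and lower bins in 10x below are by a difference of at least 10 points at an unadjusted p under 0.05 in limma, which 4.48% and 1.48% of all near intergenic bins met, so that a list of this size holds few by that share alone. Bins near homeobox and T-box genes (145 bins near 48 genes) were low, with a mean of 37.3% in 0x and 57.2% of bins under 20%, against 10.9% of all near intergenic bins. In 10x, 4 (2.76%) were higher and 3 (2.07%) lower, and the median difference was -0.403 points, beside 1.38 points over all near intergenic bins. The largest were those near Tbx4, above, near Dlx3, a regulator of skin and bone, at 0%, 0%, 9.93% and 0% in 0x and 19.6% to 62.0% in 10x (limma adjusted p = 0.311), and near Irx4, a regulator of the heart ventricle, with means of 81.1% and 48.4%. The bin near Irx4 overlapped between 0x and 10x (limma adjusted p = 0.833). Bins near basic helix-loop-helix, forkhead, SOX, GATA and zinc finger regulators (81 bins) had 4 higher (4.94%, near the 4.48% of all near intergenic bins) and 0 lower, with a median of 1.51 points beside 1.38. The largest were near Neurog3, Ascl2 and Gli2, with means of 56.2%, 58.6% and 40.0% in 0x and 95.3%, 91.6% and 67.9% in 10x. A sample of 0x stood at 0% near Neurog3 and near Ascl2, and none passed (limma adjusted p = 0.725, 0.821 and 0.773).

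Of 37 bins near hematopoietic transcription factors, 1 was higher and 1 lower in 10x (2.70% each), with a median of 0.559 points. The bin 6068 bp upstream of Fli1, an ETS factor of megakaryocytes and HSCs, was at 11.3%, 37.1%, 35.4% and 0% in 0x and at 0% to 5.26% in 10x (-20.0 ± 6.84 points, SE, limma adjusted p = 0.639). Those near Irf4 and Zbtb16 had means of 43.9% and 70.04% in 10x against 76.5% and 88.1% in 0x. Both overlapped between 0x and 10x and neither passed (limma adjusted p = 0.831 and 0.859). Of 27 bins near hematopoietic surface molecules, 0 were higher and 2 (7.41%) lower in 10x (smallest limma adjusted p = 0.414), with a median of -2.84 points. Near Cd9, a tetraspanin, the bin was at 38.2%, 0%, 50% and 26.1% in 0x, at 0% to 0.781% in 2x and at 0% to 22.2% in 10x (limma adjusted p = 0.872 in 2x and 0.717 in 10x). The bins near Itga3 and Ifngr1 had means of 57.6% and 43.3% in 0x and 86.8% and 60.3% in 10x. Their 0x samples ran from 0% to 90.9% and from 3.23% to 100%, and neither passed (limma adjusted p = 0.833 and 0.877).

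Bins near imprinted genes (31 bins near 12 genes) had a median difference in 10x of 3.54 points, with 2 higher (6.45%) and 0 lower. Near Blcap, expressed from the maternal allele in brain, the bin was at 0%, 39.2%, 0% and 100% in 0x, so that single samples covered the whole scale, and at 65.9% to 100% in 10x (limma adjusted p = 0.620). Near Klf14, the means were 29.2% in 0x and 66.8% in 10x, and the 0x samples ran from 0% to 71.1% (limma adjusted p = 0.787). The 4 bins upstream of Rasgrf1, looked up by name after the values had been seen, had means from 29.0% to 61.6% over all samples and a median difference of 21.3 points in 10x, with none at an unadjusted p under 0.05. Wnt, Hedgehog, FGF, BMP and Notch genes (47 bins) had 1 higher and 1 lower (2.13% each), with the largest differences near Dkk3, Bmp7 and Wnt11. No bin near genes of the cell cycle, DNA damage and 5FU metabolism (29 bins) or of DNA methylation and Polycomb (28 bins) was higher or lower in 10x by that rule (smallest limma adjusted p = 0.503 and 0.562), with medians of -1.18 and 0.0501 points. The first list was led by Gadd45g, Cdkn2a and Smug1, and the second by Cbx2 and Cbx8.

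Of the 5 regions with the most bins, 3 were low in all groups. The 5 lay near Gm32719 (14 bins), Uncx (13), Lncppara (12), Gm33780 (11) and Gm26721 (8). The region near Uncx, a homeobox gene of the vertebrae and kidney, stood at 9.32% ± 3.32 (SD, n = 4) in 0x and 9.14% ± 2.01 (n = 6) in 10x, and that near Lncppara at 6.84% ± 2.59 and 4.43% ± 2.32. The region near Gm26721 stood at 6.73% ± 4.48 in 0x and 12.1% ± 4.14 in 10x. The regions near Gm32719 and Gm33780 were high, at 79.2% and 87.0% in 0x. All of them overlapped between 0x and 10x, and none passed.

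Low bins were found around some single genes, chosen after their values were seen, and near some of these genes they extended far from the TSS. All 15 bins 6787 to 18087 bp upstream of Cbx8, a chromobox subunit of Polycomb repressive complex 1, were under 20%, from 0.908% to 16.4% over all samples, with a median difference of 0.0432 points in 10x. Near Lbx1, a homeobox gene of muscle precursors and spinal cord, 12 of 18 bins were under 20%, and the 3 bins at 80% or more lay 26842 bp and farther out. Near Uncx, 19 of 24 bins were under 20%, from 6102 bp outward. Both bins near Meis1, a homeobox factor that maintains HSCs, lay 7649 and 7749 bp upstream and were at 2.60% and 1.67%. Near Socs3, a feedback inhibitor of cytokine signalling, 5 of 10 bins were under 20%, and near Foxd3, a forkhead factor of the neural crest, 5 of 10. Those near Foxd3 lay only 5001 to 6601 bp from the TSS, at the inner limit of the distance range. The median differences in 10x near Cbx8, Lbx1, Uncx, Socs3 and Foxd3 ran from -2.52 to 5.62 points.

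**Figure D5:**
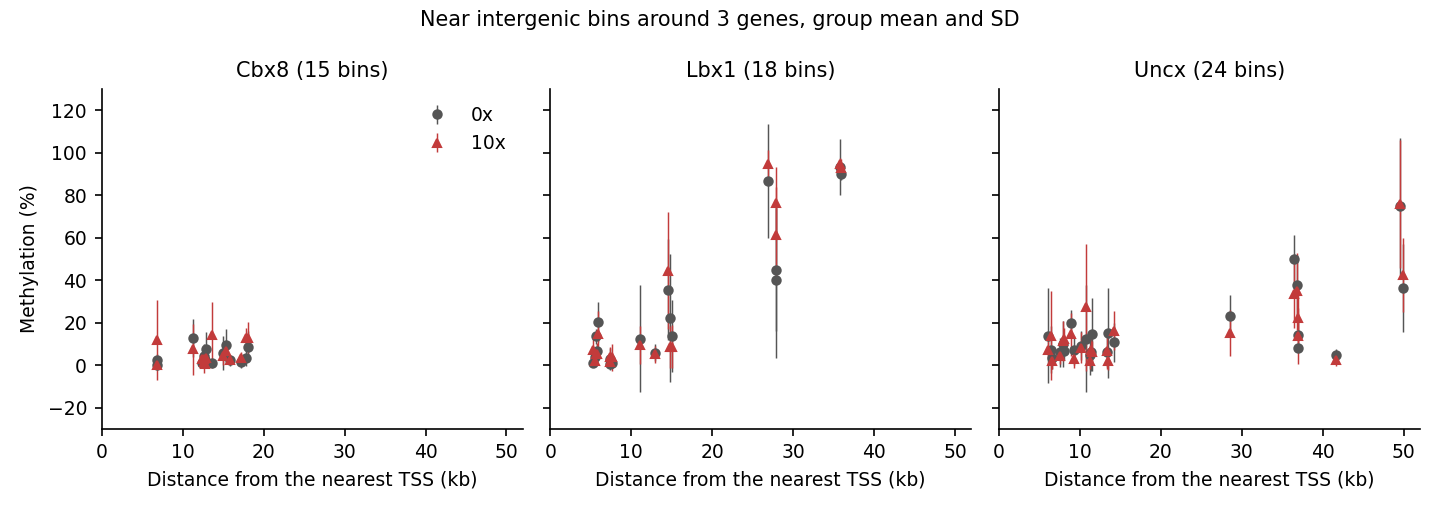
Methylation (y axis, percent) of the near intergenic bins around Cbx8, Lbx1 and Uncx against their distance from the nearest TSS (x axis, kb); points are means of 0x (circles, n = 4) and 10x (triangles, n = 6) and bars the SD, which can reach below 0% and above 100%. All 15 bins near Cbx8 are under 20%, and near Lbx1 and Uncx the highest bins lie more than 20 kb away.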

How the data were processed

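DNA methylation was measured by RRBS in 20 HSC samples. Per the labels and the study's methods, reads were trimmed (Trim Galore 0.4.3) and aligned to the mm10 build (Bismark 0.23.1). In methylKit 1.22.0 the authors kept sites with at least 10 reads, summarised them over 100 bp and replaced missing bins by their group's mean. The deposited values are percent methylation per bin and sample, with no read numbers, so depth is unknown, no counting interval is given, and the planned test on counts was replaced by limma on the percent. Filled values are not marked. A value filled in several samples of a group repeats and its bin was left out, while one filled in a single sample cannot be told from a measured one. Values equal to the plain mean of the other samples of the group (tolerance 1e-06) occurred in at most 0.123% of bins per group. A fill weighted by reads would escape this check, so it does not tell how many single values were filled.

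A bin runs from its deposited start over 100 bp. Transcripts of RefSeq (GRCm38.p6) and the genome gave location, CpG sites and soft-masked repeats. Sample means were compared by two-sided exact permutation, slopes with 100000 permutations, and bins and regions with limma 3.58.1 in R 4.3.3, tested on simulated data, with Benjamini-Hochberg adjustment. Other steps used data.table (version 1.17.8) and Python 3.11.15 (pandas 2.3.3, numpy 2.4.6), with figures from matplotlib 3.10.9. The filter favours bins that vary in every group.

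Of the bins called in 10x, 1 is not reported here. The members, the 8 gene lists (495 genes) and the tests were chosen with earlier results of these data known. Bins named are those called, the 5 largest increases and decreases without overlap in each comparison, up to 3 per gene list by the difference in 10x, and among regions the 5 with the most bins and the 5 of at least 3 bins with the largest difference in 10x. Bins near Rasgrf1, Cbx8, Lbx1, Uncx, Meis1, Socs3 and Foxd3 were named outside this rule. Alternatives covered the bin set, annotation, summary, scale, spread, label series, region definition and leaving out each sample.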

Additional observations from a re-analysis of the deposited data

Results flagged for a closer look

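Of 80 groups of samples checked, 12 held a sample far from the others by Dixon's ratio, where chance flags about 1 in 20. In 0x, replicate 01 had a mean level of 75.3%, with the other 3 samples from 73.1% to 73.4%, and 64.6% of bins over 80%, with the others from 60.3% to 61.0%. In 10x, replicate 32 had 18.9% of bins from 20% to 80%, with the others from 21.3% to 22.3%.

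At the called loci, the bin near 1700080G11Rik was at 81.3% in 2x replicate 04, with the others at 100%, at 100% in 4x replicate 19, with the others from 85.2% to 86.5%, and at 88.9% in 10x replicate 12, with the others from 98.3% to 100%. Its region was at 100% in 4x replicate 19, with the others from 86.0% to 87.7%. The region near Nxph3 was at 10.3% in 2x replicate 03, with the others from 0% to 3.33%. The region near Trim52 was at 53.8% in 4x replicate 20, with the others from 98.6% to 100%, and at 91.9% in 10x replicate 33, with the others from 96.1% to 98.6%. Among named regions that were not called, that near Gpat2 was at 91.9% in 0x replicate 02, with the others from 50.2% to 55.7%. That near 2010010A06Rik was at 45.0% in 4x replicate 06, with the others from 30.9% to 32.9%.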

How the results depend on the processing

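The higher mean level in 10x kept its direction and passed in all alternatives run, from 1.52 to 3.05 points, and from 2.06 to 2.78 points when each sample was left out. The mean in 2x passed over all deposited varying bins (1.02 points) and with repeated values set to missing (2.48 points), and that in 4x passed over regions (1.74 points) and without 0x replicate 01 (2.19 points; range over single samples left out 1.47 to 2.19). In 2x the range was 0.500 to 1.24. The slope did not pass with repeated values missing (0.0805) or as a median over bins (0.0133), was 0.420 without the 10x group and 0.116 over all deposited varying bins, and ranged from 0.195 to 0.2303 without single samples. Over all deposited varying bins 25 subset tests passed in place of 13, and some differences turned sign. In bins under 20%, 10x went from -0.746 to 0.728 points and 4x from -0.211 to 1.20, both passing there, and 2x passed at -1.23. In bins from 20% to 80%, 2x went from 1.18 to -1.10 points, and in bins over 80% it passed at 1.77. The cause was not tested.

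Set against gene deserts, the difference of changes turned sign over all deposited varying bins (-0.0258 in 2x and, passing, 0.114 in 10x) and with curated transcripts (-0.227 in 4x), where 10x passed at -0.554. Against deep introns it turned in 2x over all deposited varying bins (-0.0240) and passed in 10x (0.23003), whereas with curated transcripts 10x stood at 0.00477 (exact permutation, adjusted p = 0.933). Against promoter flanks it passed there in 2x (0.2799) and 10x (0.324), and with curated transcripts in 10x (0.508); in 2x it turned to -0.00122 without 0x replicate 02 and ranged up to 0.255.

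Calls of bins in 2x numbered 6 in 1 fit of all 4 groups and 0 to 5 without single samples, and in 4x 0 to 1. In 10x they numbered 0 on the log2 scale, with a variance trend and with the label series as a block, 1 in 1 fit of all 4 groups, 4 fitted on near intergenic bins alone, and 0 to 21 without single samples. The slope gave 0 on the log2 scale and with a variance trend, 2 on near intergenic bins alone, and 0 to 2 without single samples. With at least 3 bins per region, 0 were called in 2x and in 10x. That rule leaves out the called regions, of 2 bins each, before any test, so it does not bear on their calls. Without single samples, 1 region was called in 2x throughout and 1 to 4 in 10x, and the calls near Nxph3 and 1700080G11Rik passed in each such fit, whereas that near Trim52 was lost in 8 of 10. The region near Uncx ranged from -1.32 to 1.28 points in 10x and turned sign without 0x replicate 14 (1.28), 10x replicate 32 (0.216) or 10x replicate 33 (0.0978). No paired analysis was possible because the groups share no replicate numbers. Without read numbers, a small difference in a bin of few reads cannot be told from counting error.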
